A study of Homo sapiens with 12 samples.

Results

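Aminoacyl-tRNA synthetases, the enzymes that join each amino acid to its transfer RNA, were followed in NB4 cells treated with all-trans retinoic acid (ATRA). The set was a fixed list of 35 genes, taken by symbol, of which 19 encode the cytosolic enzymes (names ending in 1, with FARSA and FARSB) and 16 the mitochondrial ones (names ending in 2). All 35 of 35 had a probe set annotated to 1 gene, among 18404 genes measured in all. VARS2 was the 1 member with several such probe sets, and its brightest was used. Genes entered the list by symbol and not by expression, but earlier results of these data were known when the list was chosen.

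NB4 cells are a human line from acute promyelocytic leukemia, and ATRA drives them to mature toward granulocytes. HOTAIRM1 is a long noncoding RNA of the HOXA locus, and the study asked how its knockdown affects that maturation. Total RNA was hybridised to 12 arrays in 4 arms of 3. Knockdown cells after ATRA and untreated knockdown cells were each represented by a duplicate of shRNA1 cells and 1 sample of cells with shRNA2, both shRNAs directed at HOTAIRM1. Control cells after ATRA and untreated control cells were each represented by a duplicate of cells with a scrambled shRNA and 1 sample of wild type cells without any shRNA. Treatment was 0.5 uM ATRA for 96 hours. Every shRNA line carried the pLKO.3G lentiviral vector, was sorted for GFP and came from single cells grown in soft agar, whereas the wild type cells had no vector. The duplicates are called biological, without a statement on whether they were separate clones, so the p-values measure only how far these samples differ among themselves, which may be partly technical. Values below are log2 array signals of 1 probe set, a scale on which a difference of 1 is a doubling, and levels of different genes cannot be compared on it.

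The cytosol and the mitochondrion each need a full set of charged transfer RNAs. Mitochondrial enzymes are encoded in the nucleus, made in the cytosol and imported to serve the few proteins that mitochondria translate themselves. GARS1 and KARS1 supply both compartments from 1 gene each, EPRS1 charges both glutamate and proline, and FARSA and FARSB are the subunits of 1 phenylalanine enzyme. Mitochondrial glutamine is made on the transfer RNA by an amidotransferase in place of a synthetase. The synthetases fall into class I and class II by the fold of the catalytic domain, and several cytosolic ones sit in the multi-tRNA synthetase complex. Many cytosolic synthetase genes are known targets of ATF4, the transcription factor of the amino acid response, and WARS1 is a classic gene of the interferon gamma response.

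Promoter sequence shows a feature by which the members differ, and the stretches that carry it are given here for comparison with the values. RefSeq windows on GRCh38.p14, from 250 bases before to 50 bases after a transcript start, were matched by symbol for 30 of 35 members, 16 cytosolic and 14 mitochondrial (39 windows). The members with no window are LARS1, VARS1, YARS1, AARS2 and VARS2. The core TGATGNAA of the amino acid response element, searched on both strands, was found in 7 of 16 cytosolic members and in 1 of 14 mitochondrial members, against 4.46% of 27305 genes with a window. The motifs were picked after values of these data had been seen, and a match describes letters, not a bound site. The stretches of 60 bases around each match run 5′ to 3′ on the gene's strand, with the core in capitals (TTGCATCA and TTTCATCA are the core read on the other strand).
AARS1, chr16:70289660-70289719, minus strand: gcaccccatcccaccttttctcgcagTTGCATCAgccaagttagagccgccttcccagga
CARS1, chr11:3057392-3057451, minus strand: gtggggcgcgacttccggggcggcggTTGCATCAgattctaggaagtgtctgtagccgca
GARS1, chr7:30594819-30594878, plus strand: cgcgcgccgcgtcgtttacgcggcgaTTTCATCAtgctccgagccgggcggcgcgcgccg
IARS1, chr9:92293677-92293736, minus strand: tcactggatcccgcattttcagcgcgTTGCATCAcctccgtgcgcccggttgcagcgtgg
MARS1, chr12:57488038-57488097, plus strand: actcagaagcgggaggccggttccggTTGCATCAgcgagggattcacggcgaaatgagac
NARS1, chr18:57621789-57621848, minus strand: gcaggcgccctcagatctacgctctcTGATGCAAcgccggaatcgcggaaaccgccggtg
TARS1, chr5:33440941-33441000, plus strand: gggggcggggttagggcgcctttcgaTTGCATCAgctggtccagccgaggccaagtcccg
YARS2, chr12:32756061-32756120, minus strand: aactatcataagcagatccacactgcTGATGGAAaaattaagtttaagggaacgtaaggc

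WARS1 is shown because it moved against its relatives. One of its windows holds the core of the interferon-stimulated response element (GAAA, any 2 bases, GAAA; in capitals), whose first base lies 55 bases before the start. Of the other members with a window, EARS2 also held this core, against 4.38% of genes with a window. The gamma-activated sequence core (TTCNNNGAA) and the E-box (CACGTG) were searched as well. The former was found in CARS1, TARS1, WARS1, PARS2 and WARS2, against 9.38% of genes, so both tryptophan enzymes held it. The E-box was found in IARS1, CARS2, EARS2 and MARS2, against 8.77% of genes.
WARS1, chr14:100375298-100375597, minus strand: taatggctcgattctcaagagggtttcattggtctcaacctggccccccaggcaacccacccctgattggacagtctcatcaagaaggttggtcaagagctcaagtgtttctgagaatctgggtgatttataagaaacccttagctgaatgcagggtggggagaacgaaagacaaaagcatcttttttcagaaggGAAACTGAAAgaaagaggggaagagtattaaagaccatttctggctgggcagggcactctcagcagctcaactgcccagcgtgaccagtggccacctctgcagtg

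HARS1 and HARS2 lie head to head on chromosome 5, with 84 bases between their starts. That stretch holds the ETS core CCGGAAG on each strand (capitals). The same core was found in 9 of 16 cytosolic and 7 of 14 mitochondrial members with a window, against 12.2% of genes. HARS1 and HARS2 each enter these counts, although their windows share this stretch.
HARS1 to HARS2, chr5:140691371-140691454, plus strand: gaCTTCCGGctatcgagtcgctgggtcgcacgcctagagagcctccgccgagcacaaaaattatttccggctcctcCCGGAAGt

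The arrays of an arm correlated at 0.985 to 0.995 over all genes. The untreated scrambled replicate 2 array stood apart on the first principal component, at -10.6, where the other untreated arrays lay between -41.2 and -32.5. Of the promyelocytic markers, MPO averaged 13.56, PRTN3 13.04, AZU1 10.55, ELANE 9.05, CTSG 8.86 and KIT 5.43 over the 12 arrays, while CD33 was not measured. CTSG was the 1 called and fell by 2.45 in knockdown cells (adjusted p = 0.00356), and its change in control cells was -1.08 (adjusted p = 0.102). The wild type ATRA array was the lowest control ATRA array for MPO (12.67 against 13.50 and 13.44 on scrambled replicates 1 and 2). The same held for PRTN3 (11.55 against 13.26 and 13.30), AZU1 (9.30 against 10.48 and 10.82) and CTSG (7.56 against 8.07 and 8.05). It was not the lowest for ELANE or KIT. The maturation markers ITGAM, CYBB and FPR1 rose with ATRA in knockdown and in control cells. Their mean with CSF3R was 10.77 to 10.84 after ATRA and 8.82 to 9.30 untreated in knockdown cells, and 10.91 to 11.14 after ATRA and 9.22 to 10.44 untreated in control cells, the 10.44 being scrambled replicate 2. Monocyte markers were called higher for 2 of 4 measured in knockdown and 3 of 4 in control cells, with a mean of 7.06 to 7.41 after ATRA and 6.77 to 7.01 untreated in knockdown cells, and of 7.40 to 7.53 after ATRA and 6.79 to 6.95 untreated in control cells. Array medians were 7.73 to 7.81. The 3 T cell and 2 B cell markers measured gave 0 calls with ATRA, CD3E averaging 6.44 and MS4A1 5.62, and erythroid markers 1 call of 2 in control cells. Over all genes, 24.8% were called in either direction in knockdown cells and 36.1% in control cells. Called higher were 10.1% and 15.2%, so counts from such short lists say little. CD3D, a T cell marker, read 8.53 to 8.61 on 3 untreated arrays and changed by -0.98 in knockdown cells (adjusted p = 0.0695). CD79A, a B cell marker, read 10.91 on untreated scrambled replicate 2, where the other control arrays read 8.22 to 8.60. The part of these markers in the results below was not tested. HOTAIRM1 had no named probe set, so the knockdown was not checked, and the number of arrays limits the precision of every value.

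With ATRA, synthetases of both compartments fell, and WARS1 was the 1 member called higher. Positive changes, called or not, were found for 5 cytosolic members and 1 mitochondrial member in knockdown cells, and for 2 and 0 in control cells. In knockdown cells, 5 of 19 cytosolic members fell, namely FARSA, FARSB, HARS1, KARS1 and RARS1, and 1, WARS1, rose. Of the 16 mitochondrial members, 7 fell there (EARS2, FARS2, IARS2, LARS2, MARS2, NARS2 and YARS2). In control cells, 11 of 19 cytosolic members fell, 1 rose, and 13 of 16 mitochondrial members fell. A gene was called at an adjusted p under 0.05 in the limma fit. Over all genes, 14.7% were called lower and 10.1% higher with ATRA in knockdown cells, and 20.9% lower and 15.2% higher in control cells. In either direction, 24.8% were called in knockdown cells and 36.1% in control cells. Without both arrays of scrambled replicate 2, 6 cytosolic and 8 mitochondrial members fell in knockdown cells and 11 and 13 in control cells, with WARS1 the 1 rise in each. Because whole cell RNA was measured, fewer cells of a kind and less RNA per cell cannot be told apart.

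Medians over the lists show the same order. The median log2 change was -0.19 over the cytosolic and -0.29 over the mitochondrial members in knockdown cells, where all genes had a median of -0.03. In control cells it was -0.53 over the cytosolic and -0.69 over the mitochondrial members, where all genes had a median of 0.05. The change was negative in 15 of 16 mitochondrial members in knockdown cells and in 16 of 16 in control cells. By fold, 6 of 19 class I members fell in knockdown cells and 14 in control cells, and 6 of 16 class II members fell in knockdown cells and 10 in control cells. Of the 24 members that fell in control cells, 12 also fell in knockdown cells, and 0 members fell in knockdown cells alone. Over all genes, 2369 of the 3844 that fell in control cells also fell in knockdown cells, so the members' share was no higher than that of genes in general.

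**Figure D1:**
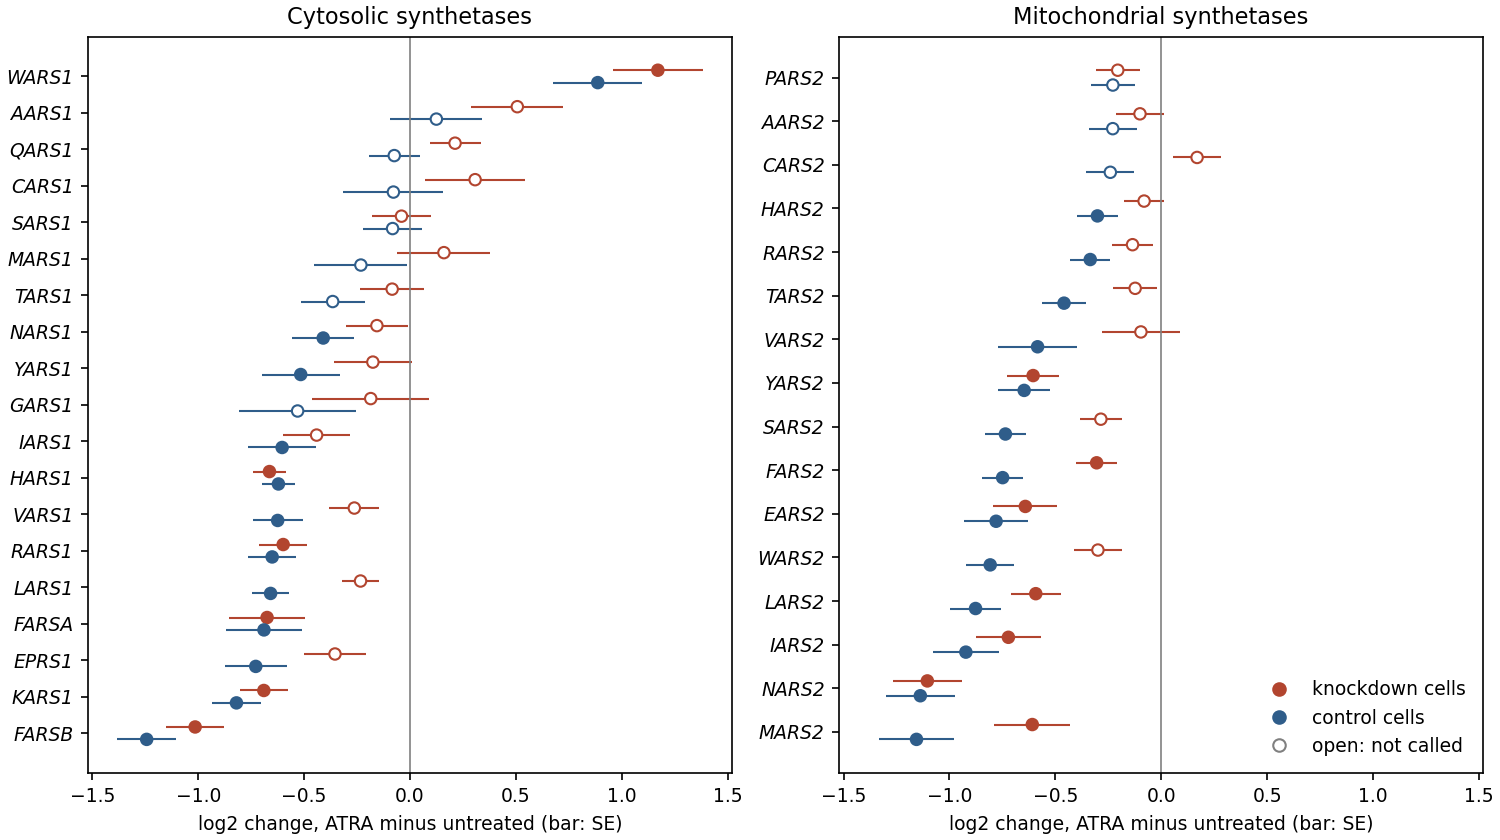
Log2 change with ATRA (ATRA minus untreated, x axis) for the 19 cytosolic (left) and 16 mitochondrial members (right), with knockdown cells in red above control cells in blue. Bars are standard errors of the limma fit over 3 arrays an arm, and filled points passed an adjusted p of 0.05. WARS1 is the 1 filled point right of 0, and the mitochondrial points of control cells all lie left of 0.

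The tryptophan enzymes parted by compartment. WARS1 charges tryptophan in the cytosol and lies on chromosome 14 at 100333790 to 100376327 (GRCh38.p14). In knockdown cells it measured 12.13, 12.08 and 12.42 after ATRA, against 11.36, 11.04 and 10.72 untreated, where the values of an arm are given here and below as shRNA1 replicates 1 and 2 and then shRNA2. In control cells it measured 12.10, 11.88 and 12.56 after ATRA, against 11.29, 11.62 and 10.97 untreated, given as scrambled replicates 1 and 2 and then wild type. All ATRA arrays lay above all untreated ones in both kinds of cells. Over all genes, this held for 16.7% in knockdown cells and for 25.2% in control cells. The rise was 1.17 (SE 0.21, 2.25-fold, adjusted p = 0.00212) in knockdown cells and 0.89 (SE 0.21, 1.85-fold, adjusted p = 0.00708) in control cells. Without the wild type arrays the control rise was 0.54 (adjusted p = 0.0975). The wild type pair had the highest ATRA value and the lowest untreated value of the control arrays.

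WARS2, the mitochondrial tryptophan enzyme on chromosome 1, went the other way. It measured 8.17, 8.15 and 8.08 after ATRA in knockdown cells, against 8.59, 8.32 and 8.39 untreated. In control cells the ATRA arrays read 7.72, 7.74 and 7.37, against 8.30, 8.56 and 8.39 untreated. The arms did not overlap in either, but the fall was called in control cells alone, by 0.81 (SE 0.11, adjusted p = 0.000313). Over all genes, all ATRA arrays lay below all untreated ones for 24.6% in knockdown cells and 23.4% in control cells. In knockdown cells the change was -0.30 (SE 0.11, adjusted p = 0.0774). Tryptophan was the 1 amino acid whose cytosolic and mitochondrial enzymes were called in opposite directions.

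**Figure D2:**
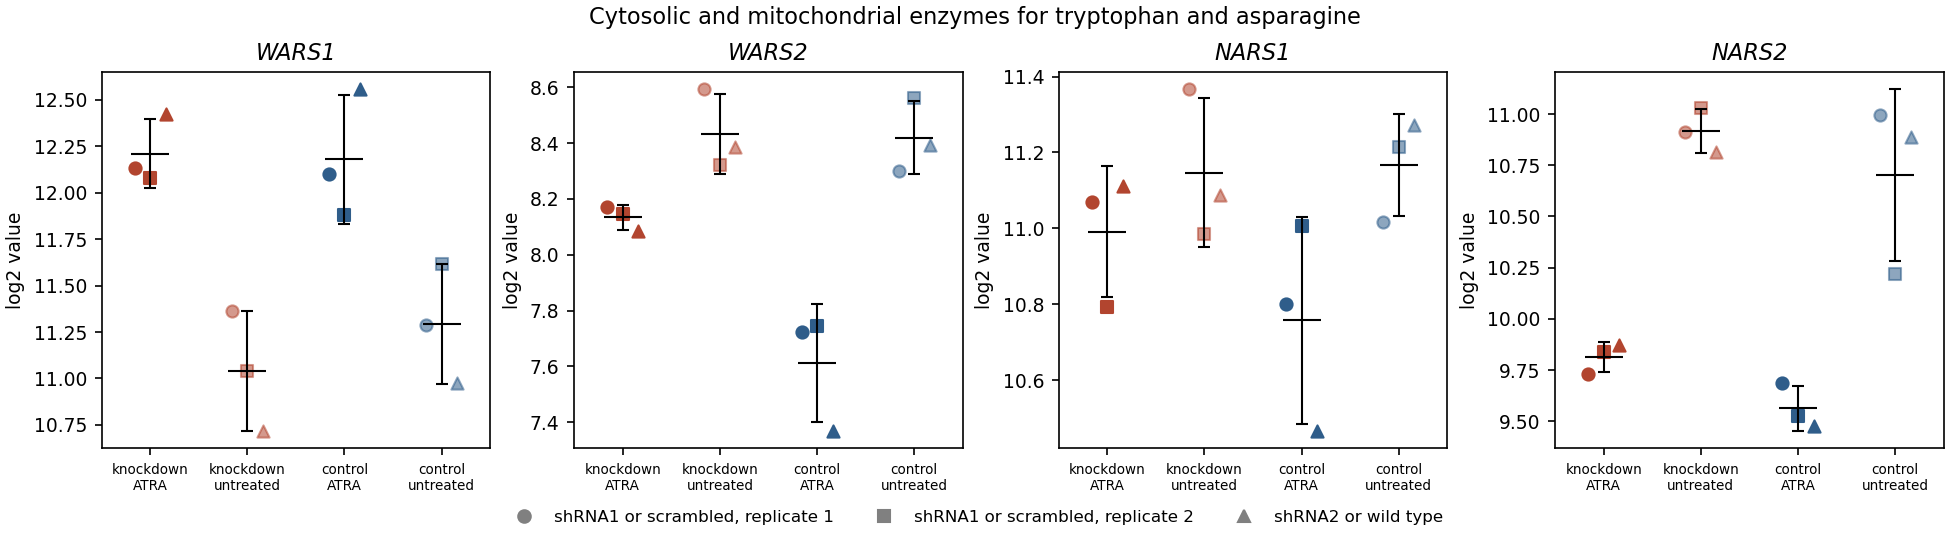
Log2 values by array (y axis) of WARS1, WARS2, NARS1 and NARS2 in the 4 arms, with bars at the mean and SD of 3 arrays; circles and squares are the numbered shRNA1 or scrambled samples and triangles shRNA2 or wild type. WARS1 lies higher after ATRA, WARS2 and NARS2 lower, and the NARS1 arms of knockdown cells overlap.

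The phenylalanine enzyme had the largest cytosolic fall. FARSB, its beta subunit (chromosome 2, 222566899 to 222656092), measured 11.01, 11.22 and 11.25 after ATRA in knockdown cells, against 12.10, 12.28 and 12.15 untreated. FARSB read 10.90, 10.88 and 10.52 after ATRA in control cells, against 12.12, 11.71 and 12.20 untreated. Both pairs of arms were well apart. It fell 2.02-fold in knockdown cells (log2 change -1.01, SE 0.14, adjusted p = 0.000569) and 2.37-fold in control cells (-1.24, SE 0.14, adjusted p = 0.000107). FARSA, the alpha subunit, measured 11.19, 11.28 and 11.22 after ATRA in knockdown cells, against 11.85, 11.79 and 12.07 untreated. FARSA read 11.28, 11.22 and 10.47 after ATRA in control cells, against 11.57, 11.60 and 11.86 untreated. It fell by 0.67 in knockdown cells (adjusted p = 0.0169) and by 0.69 in control cells (adjusted p = 0.0116), with the wild type pair furthest apart. The control change of FARSA rested in part on wild type cells. It was -0.60 without the untreated wild type array (adjusted p = 0.0531, not called), -0.43 without the wild type ATRA array (adjusted p = 0.0147) and -0.34 without both (adjusted p = 0.0506, not called). Its knockdown call was lost when any of 3 knockdown arrays was left out (untreated shRNA2, shRNA1 replicate 1 after ATRA or shRNA2 after ATRA), at changes of -0.67 to -0.59. FARS2, the single-chain mitochondrial phenylalanine enzyme, measured 9.21, 9.30 and 9.12 after ATRA in knockdown cells, against 9.52, 9.47 and 9.56 untreated. Its control arrays read 8.87, 8.93 and 8.58 after ATRA, against 9.53, 9.47 and 9.64 untreated. The fall was 0.75 in control cells (adjusted p = 0.000201). In knockdown cells it fell by 0.31 (adjusted p = 0.0358), a call lost when any of 5 knockdown arrays (every one except shRNA1 replicate 2 after ATRA) was left out, at -0.33 to -0.26.

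Within the multi-tRNA synthetase complex, 2 of 7 enzymes fell in knockdown cells (median change -0.35) and 5 of 7 in control cells (median change -0.65). The shares of all genes that fell were 14.7% and 20.9%. KARS1, the lysine enzyme of both compartments, measured 10.36, 10.60 and 10.53 after ATRA in knockdown cells, against 11.05, 11.11 and 11.40 untreated. KARS1 read 10.35, 10.52 and 10.15 after ATRA in control cells, against 11.14, 11.15 and 11.18 untreated. KARS1 fell by 0.69 in knockdown cells (SE 0.11, adjusted p = 0.00134) and by 0.82 in control cells (SE 0.11, adjusted p = 0.0003), with the arms apart in both. RARS1, the arginine enzyme, measured 10.15, 10.17 and 10.19 after ATRA in knockdown cells, against 10.70, 10.79 and 10.82 untreated. RARS1 read 10.00, 10.25 and 9.71 after ATRA in control cells, against 10.57, 10.59 and 10.75 untreated. Its fall was 0.60 in knockdown cells (adjusted p = 0.00293) and 0.65 in control cells (adjusted p = 0.00123).

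Other enzymes of the complex were called in control cells alone. LARS1, which charges leucine, measured 10.64, 10.59 and 10.75 after ATRA in knockdown cells, against 10.95, 10.75 and 11.00 untreated (arms that overlapped). In control cells it measured 10.07, 10.18 and 10.05 after ATRA, against 10.70, 10.69 and 10.89 untreated. It fell by 0.66 there (adjusted p = 0.000261), while the change in knockdown cells was -0.23 (adjusted p = 0.0788). EPRS1, the fused glutamate and proline enzyme, measured 9.93, 9.74 and 10.20 after ATRA in knockdown cells, against 10.46, 10.24 and 10.23 untreated. EPRS1 read 9.26, 9.29 and 9.67 after ATRA in control cells, against 10.22, 9.92 and 10.27 untreated. The control fall was 0.73 (adjusted p = 0.00264) and the change in knockdown cells -0.35 (adjusted p = 0.105). IARS1, for isoleucine, measured 11.30, 11.16 and 11.54 after ATRA in knockdown cells, against 11.77, 11.66 and 11.89 untreated. IARS1 read 10.68, 10.83 and 11.13 after ATRA in control cells, against 11.63, 11.13 and 11.69 untreated. IARS1 fell by 0.60 in control cells (adjusted p = 0.0123), a call lost without the untreated wild type array (-0.50, adjusted p = 0.0579), and its change in knockdown cells was -0.44 (adjusted p = 0.0655). MARS1 (methionine) and QARS1 (glutamine), the remaining enzymes of the complex, were not called. AIMP1, the 1 scaffold of the complex measured of 3, fell by 0.35 in control cells (adjusted p = 0.0109) and changed by -0.19 in knockdown cells (adjusted p = 0.179).

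HARS1, the cytosolic histidine enzyme, changed almost alike in both kinds of cells. After ATRA it measured 10.88, 10.96 and 10.96 in knockdown cells, against 11.47, 11.66 and 11.66 untreated. HARS1 read 10.93, 10.94 and 10.78 after ATRA in control cells, against 11.58, 11.43 and 11.51 untreated. The fall was 0.66 in knockdown cells (SE 0.08, adjusted p = 0.000347) and 0.62 in control cells (SE 0.08, adjusted p = 0.000201). HARS2, its mitochondrial counterpart across the shared 84 bases, measured 8.60, 8.71 and 8.66 after ATRA in knockdown cells, against 8.61, 8.78 and 8.82 untreated. HARS2 read 8.57, 8.52 and 8.46 after ATRA in control cells, against 8.66, 9.02 and 8.77 untreated. HARS2 fell by 0.30 in control cells (adjusted p = 0.0287) and changed by -0.08 in knockdown cells (adjusted p = 0.618). The HARS2 call was lost when any of 4 control arrays was left out (both wild type arrays and both arrays of scrambled replicate 2, one at a time), at -0.33 to -0.20. The sizes for the pair were thus -0.66 and -0.08 in knockdown cells, and their difference was not tested.

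VARS1, for valine, measured 9.69, 9.69 and 9.43 after ATRA in knockdown cells, against 9.96, 9.83 and 9.81 untreated. VARS1 read 9.45, 9.46 and 9.03 after ATRA in control cells, against 9.88, 10.02 and 9.91 untreated. VARS1 fell by 0.62 in control cells (adjusted p = 0.00192), and its change in knockdown cells was -0.26 (adjusted p = 0.138). NARS1, for asparagine, measured 11.07, 10.79 and 11.11 after ATRA in knockdown cells, against 11.37, 10.99 and 11.09 untreated. Its control arrays read 10.80, 11.01 and 10.47 after ATRA, against 11.02, 11.21 and 11.27 untreated. YARS1, for tyrosine, measured 10.96, 10.78 and 11.15 after ATRA in knockdown cells, against 11.33, 11.08 and 11.01 untreated. In control cells it measured 10.35, 10.22 and 10.83 after ATRA, against 11.20, 10.62 and 11.13 untreated, and these arms overlapped. NARS1 fell by 0.41 (adjusted p = 0.0473) and YARS1 by 0.52 (adjusted p = 0.0466) in control cells, the calls nearest the threshold. Leaving out 1 array ended the NARS1 call for 8 of the 12 arrays (-0.43 to -0.26) and the YARS1 call for 10 of 12 (-0.52 to -0.39), knockdown arrays included.

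Among the mitochondrial members, MARS2, for methionine, and NARS2, for asparagine, had the largest falls in control cells, and NARS2 and IARS2 in knockdown cells. NARS2 (chromosome 11, 78435968 to 78574864) measured 9.73, 9.84 and 9.87 after ATRA in knockdown cells, against 10.91, 11.03 and 10.81 untreated. NARS2 read 9.69, 9.52 and 9.48 after ATRA in control cells, against 10.99, 10.22 and 10.89 untreated. The fall was 2.15-fold in knockdown cells (log2 change -1.10, SE 0.16, adjusted p = 0.000804) and 2.2-fold in control cells (-1.14, SE 0.16, adjusted p = 0.000368). MARS2 (chromosome 2, 197705369 to 197708395) measured 9.51, 9.66 and 9.21 after ATRA in knockdown cells, against 10.20, 10.11 and 9.89 untreated. MARS2 read 9.21, 8.99 and 8.53 after ATRA in control cells, against 10.14, 9.80 and 10.25 untreated. MARS2 fell by 1.16 in control cells (2.23-fold, adjusted p = 0.000577) and by 0.61 in knockdown cells (adjusted p = 0.0268). The knockdown call of MARS2 was lost when any of 4 knockdown arrays was left out (untreated shRNA1 replicates 1 and 2, shRNA1 replicate 1 after ATRA and shRNA2 after ATRA), at -0.64 to -0.48.

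A further group fell in both kinds of cells with arms that did not overlap. Such lower, separate ATRA arms were found for 24.6% of all genes in knockdown cells and 23.4% in control cells. IARS2, for isoleucine, measured 8.91, 9.08 and 8.84 after ATRA in knockdown cells, against 9.71, 9.60 and 9.68 untreated. IARS2 read 8.79, 8.97 and 8.28 after ATRA in control cells, against 9.49, 9.50 and 9.82 untreated. IARS2 fell by 0.72 in knockdown cells (adjusted p = 0.00534) and by 0.92 in control cells (adjusted p = 0.000915). LARS2, for leucine, measured 8.71, 8.93 and 8.71 after ATRA in knockdown cells, against 9.37, 9.41 and 9.34 untreated. LARS2 read 8.71, 8.41 and 8.37 after ATRA in control cells, against 9.51, 9.13 and 9.47 untreated. Its fall was 0.59 in knockdown cells (adjusted p = 0.00374) and 0.88 in control cells (adjusted p = 0.000266). EARS2, for glutamate, measured 8.52, 8.91 and 8.74 after ATRA in knockdown cells, against 9.34, 9.42 and 9.34 untreated. EARS2 read 8.74, 8.63 and 8.33 after ATRA in control cells, against 9.57, 9.02 and 9.45 untreated. It fell by 0.64 in knockdown cells (adjusted p = 0.00911) and by 0.78 in control cells (adjusted p = 0.00221). YARS2, for tyrosine, measured 8.64, 8.65 and 8.72 after ATRA in knockdown cells, against 9.23, 9.34 and 9.24 untreated. YARS2 read 8.47, 8.27 and 8.39 after ATRA in control cells, against 9.19, 8.68 and 9.19 untreated. The falls of YARS2 were close in size, 0.61 in knockdown cells (adjusted p = 0.00377) and 0.65 in control cells (adjusted p = 0.00182). Without the shRNA2 arrays the knockdown changes of EARS2 (-0.67, adjusted p = 0.0625) and IARS2 (-0.66, adjusted p = 0.064) were about as large but not called.

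The other mitochondrial falls were called in control cells alone. SARS2, for serine, measured 9.26, 9.49 and 9.23 after ATRA in knockdown cells, against 9.70, 9.56 and 9.57 untreated. Its control arrays read 9.15, 8.84 and 8.94 after ATRA, against 9.79, 9.62 and 9.73 untreated. SARS2 fell by 0.74 in control cells (adjusted p = 0.00025), and its change in knockdown cells was -0.29 (adjusted p = 0.054). TARS2, for threonine, measured 9.04, 8.92 and 9.09 after ATRA in knockdown cells, against 9.35, 9.03 and 9.03 untreated. In control cells it measured 8.94, 8.85 and 8.80 after ATRA, against 9.21, 9.47 and 9.29 untreated. TARS2 fell by 0.46 in control cells (adjusted p = 0.00516). RARS2, for arginine, measured 9.14, 9.32 and 9.35 after ATRA in knockdown cells, against 9.35, 9.41 and 9.46 untreated. RARS2 read 9.13, 9.18 and 8.93 after ATRA in control cells, against 9.29, 9.56 and 9.39 untreated. RARS2 fell by 0.34 in control cells (adjusted p = 0.0172), a call lost without the untreated scrambled replicate 2 or the wild type ATRA array (-0.26 each). VARS2, for valine, measured 9.02, 8.77 and 9.11 after ATRA in knockdown cells, against 9.44, 8.80 and 8.95 untreated. VARS2 read 8.50, 8.92 and 8.38 after ATRA in control cells, against 8.93, 9.31 and 9.32 untreated (arms that nearly met). VARS2 fell by 0.58 in control cells (adjusted p = 0.0292), and the call was lost when any of 4 control arrays was left out (both wild type arrays, untreated scrambled replicate 2 and scrambled replicate 1 after ATRA), at -0.53 to -0.47. The 3 mitochondrial members called in neither kind of cell were AARS2, CARS2 and PARS2, with control changes of -0.23, -0.24 and -0.23 for the alanine, cysteine and proline enzymes. CARS2 was the 1 mitochondrial member with a positive change in knockdown cells, 0.17. It measured 10.79, 10.75 and 10.70 there after ATRA, against 10.59, 10.60 and 10.55 untreated. CARS2 was called in control cells without the wild type ATRA array (-0.36, adjusted p = 0.0232) and without both wild type arrays (-0.41, adjusted p = 0.032). PARS2 was called there without both arrays of scrambled replicate 2 (-0.37, adjusted p = 0.0134), and AARS2 and PARS2 with array weights (adjusted p = 0.0354 and 0.00789).

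Paired by amino acid, the mitochondrial enzyme had the lower change in 11 of 14 pairs and the cytosolic enzyme in 3 (histidine, arginine and valine), with the same count in knockdown and in control cells. Phenylalanine and proline were left out of these pairs, EPRS1 being paired with EARS2. FARSB, FARSA and FARS2 changed by -1.01, -0.67 and -0.31 in knockdown cells, and by -1.24, -0.69 and -0.75 in control cells. EPRS1 and PARS2 changed by -0.35 and -0.21 in knockdown cells, and by -0.73 and -0.23 in control cells. The widest gaps were those of tryptophan, asparagine and methionine. For asparagine, NARS2 changed by -1.10 and NARS1 by -0.16 in knockdown cells, and by -1.14 and -0.41 in control cells. For methionine, MARS2 changed by -0.61 and MARS1 by 0.16 in knockdown cells, and by -1.16 and -0.23 in control cells. The pairs are a description, with no test between genes.

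The cytosolic members called in neither kind of cell were AARS1, CARS1, GARS1, MARS1, QARS1, SARS1 and TARS1. Of these 7, 5 hold the amino acid response core shown above, and QARS1 and SARS1 do not. Set by the core, the 7 cytosolic members with it had a median change of -0.08 in knockdown cells with 0 called, and of -0.37 in control cells with 2 lower (IARS1 and NARS1). The 9 with a window but without the core had a median of -0.60 in knockdown cells with 5 lower, and of -0.65 in control cells with 6 lower. WARS1 is among those 9. Each control ATRA array was also set against the mean of the untreated control arm. There the members with the core had medians of -0.37, -0.61 and 0.12 (scrambled replicates 1 and 2, wild type), and those without it -0.58, -0.46 and -0.72. On this measure the order was reversed on scrambled replicate 2, and the widest gap was on wild type. The split was made after the values were seen and was not tested.

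Values of AARS1, GARS1 and MARS1, chosen after they were seen, are given by array. AARS1, for alanine, measured 11.32, 11.07 and 11.52 after ATRA in knockdown cells, against 10.97, 10.84 and 10.58 untreated. AARS1 read 10.69, 10.55 and 11.39 after ATRA in control cells, against 10.90, 10.40 and 10.96 untreated. The wild type ATRA array was far above both scrambled ones. GARS1, for glycine, measured 11.68, 11.31 and 11.80 after ATRA in knockdown cells, against 12.11, 11.71 and 11.54 untreated. GARS1 read 10.83, 10.66 and 11.72 after ATRA in control cells, against 11.89, 11.13 and 11.78 untreated. Without the wild type ATRA array, GARS1 fell by 0.86 in control cells (adjusted p = 0.0196), while with all arrays its change was -0.53 (adjusted p = 0.153). With both wild type arrays left out, the GARS1 change was -0.77 (adjusted p = 0.0681, not called). MARS1 measured 11.00, 10.87 and 11.35 after ATRA in knockdown cells, against 11.15, 10.81 and 10.78 untreated. MARS1 read 10.46, 10.20 and 11.09 after ATRA in control cells, against 11.00, 10.49 and 10.96 untreated, again with wild type highest after ATRA. AARS1 changed by 0.51 in knockdown cells (adjusted p = 0.12), with all 3 ATRA arrays above the untreated ones, as in 16.7% of all genes. Without the wild type ATRA array, that change passed (adjusted p = 0.0412), the knockdown values being the same.

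**Figure D3:**
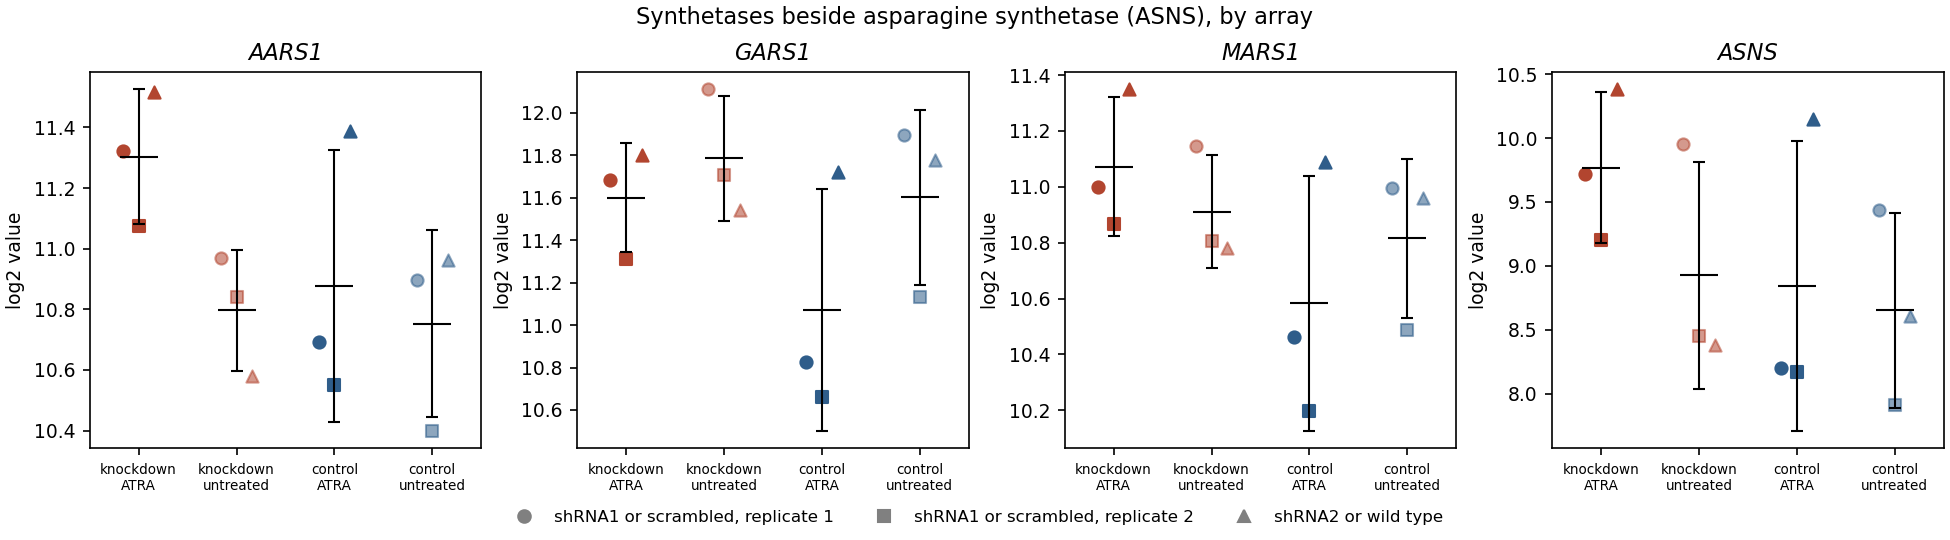
Log2 values by array (y axis) of AARS1, GARS1, MARS1 and ASNS in the 4 arms, with bars at the mean and SD of 3 arrays; circles and squares are the numbered shRNA1 or scrambled samples and triangles shRNA2 or wild type. In control cells after ATRA the wild type triangle lies above both scrambled arrays in each panel.

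The amino acid response genes, a list that shares known regulators with the cytosolic synthetases, differed between the same arrays. ASNS, asparagine synthetase, measured 9.72, 9.20 and 10.38 after ATRA in knockdown cells, against 9.95, 8.45 and 8.38 untreated. ASNS read 8.20, 8.17 and 10.15 after ATRA in control cells, against 9.44, 7.91 and 8.61 untreated. PHGDH, the first enzyme of serine synthesis, measured 10.99, 10.09 and 11.70 after ATRA in knockdown cells, and 8.90, 8.09 and 11.53 in control cells. The wild type ATRA array was the highest of the control ATRA arrays for 21 of 24 amino acid response genes and 11 of 19 cytosolic synthetases, and the lowest for the other 8. It was the highest for 2 of 16 mitochondrial synthetases and the lowest for 12. Over all genes it was the highest in 37.4% and the lowest in 33.8%. In knockdown cells after ATRA, shRNA2 was highest for 14 of 19 cytosolic and 5 of 16 mitochondrial synthetases, against 29.1% of all genes, and shRNA1 replicate 2 was lowest for 21 of 24 amino acid response genes, against 35.4% of all genes. Before ATRA, scrambled replicate 2 was the lowest control array for 11 of 19 cytosolic members, 9 of 16 mitochondrial members and 17 of 24 amino acid response genes, against 43.1% of all genes. The part of these differences between lines in the group results was not tested.

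Median shifts per array put this in numbers. Set against the mean of the untreated knockdown arm, the cytosolic members had a median of -0.18 on shRNA1 replicate 1, -0.35 on replicate 2 and -0.04 on shRNA2 after ATRA. The mitochondrial members had -0.29, -0.25 and -0.37 on the same arrays. Against the untreated control arm, the cytosolic median was -0.51 on scrambled replicate 1, -0.57 on replicate 2 and -0.36 on wild type, and the mitochondrial median was -0.58, -0.62 and -0.79. For amino acid response genes the 3 control arrays read -0.56, -0.61 and 0.35. By this measure, wild type had the deepest mitochondrial and the shallowest cytosolic median of the control arrays, with 1 sample in each state. The untreated wild type array was itself the highest of its arm for 10 of 19 cytosolic members. Medians against each line's own untreated array were not taken, and the order may differ there.

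**Figure D4:**
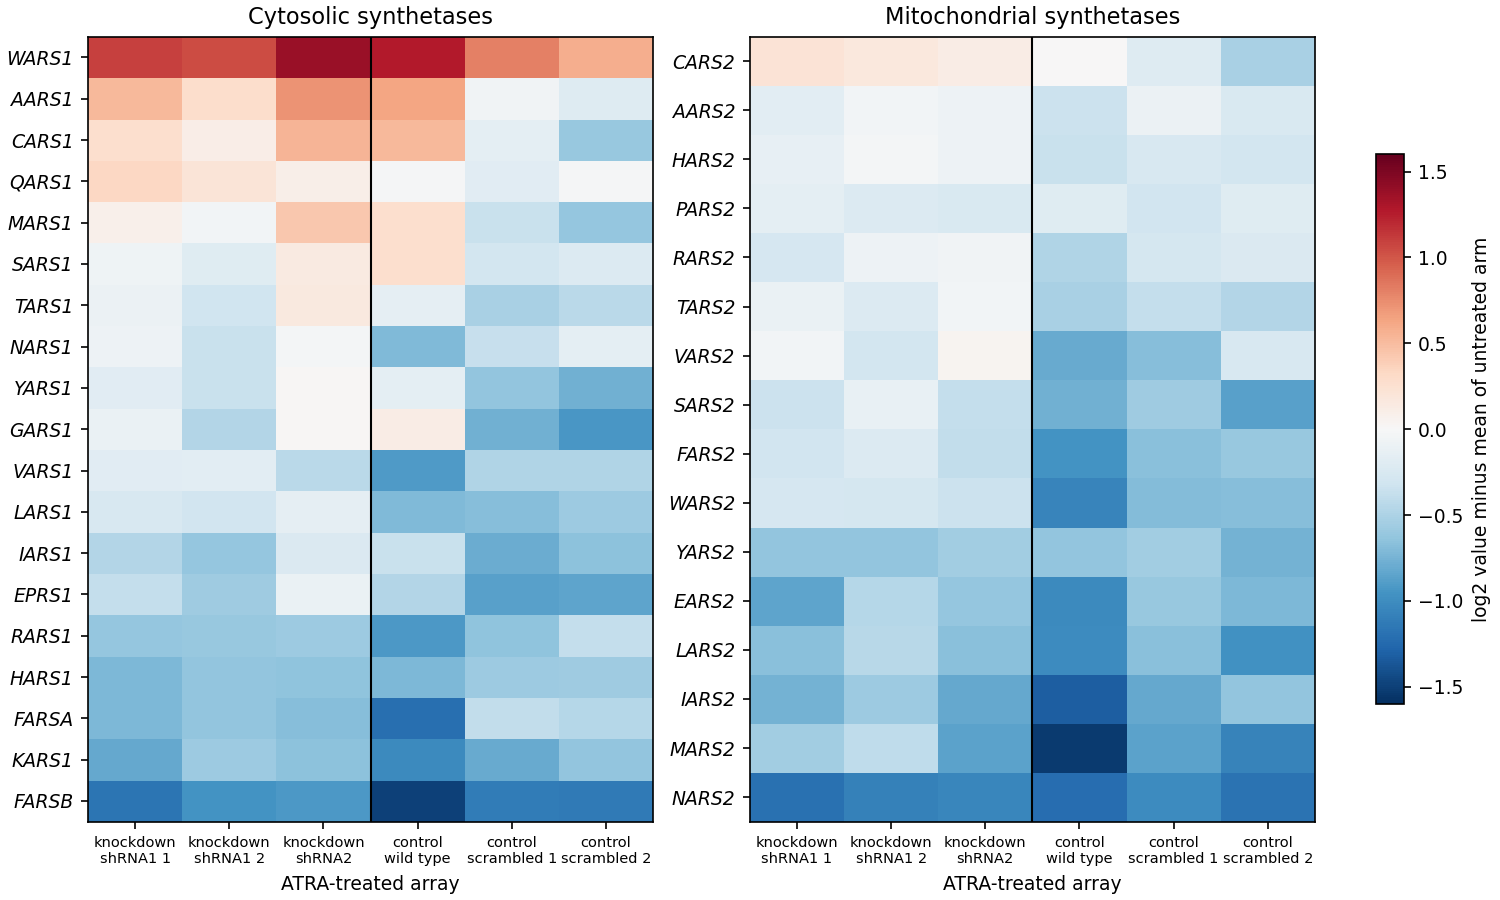
Each ATRA array's log2 value minus the mean of the untreated arm of the same kind of cells (colour, red higher and blue lower) for the cytosolic (left) and mitochondrial members (right), with knockdown arrays left of the line and control arrays right of it. WARS1 is red on all 6 arrays, and the wild type column is red for AARS1 and deep blue for FARSA and MARS2.

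Genes that serve the same step were counted from lists chosen beside the members. For comparison, 14.7% of all genes fell and 10.1% rose in knockdown cells, and 20.9% fell and 15.2% rose in control cells. Of other charging and editing factors, 8 of 11 were measured. In knockdown cells 5 fell and 1 rose, and in control cells 5 fell. DTD2, a deacylase that removes wrongly charged amino acids, fell by 1.08 in knockdown cells (adjusted p = 0.000486) and by 1.26 in control cells (adjusted p = 0.000106). DTD1, its relative that removes D-amino acids, fell by 0.71 in knockdown cells and by 0.81 in control cells. GATB of the mitochondrial glutamine amidotransferase fell by 0.51 in knockdown cells and by 0.65 in control cells, and MTFMT, which formylates the mitochondrial initiator, by 0.49 in knockdown cells and by 0.61 in control cells. QRSL1, another amidotransferase subunit, fell by 0.46 in knockdown cells and by 0.66 in control cells. SEPSECS, for selenocysteine, was the 1 that rose, by 0.29 in knockdown cells (adjusted p = 0.032). Of 8 measured elongation factors, 3 fell in knockdown and 5 in control cells. The mitochondrial factors TUFM, TSFM and GFM1 fell in both, by 0.44, 0.66 and 0.67 in knockdown cells and by 0.69, 0.88 and 0.97 in control cells.

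A list of 8 genes around eIF2 phosphorylation held kinases that slow initiation under stress, of which EIF2AK4 with its activator GCN1 responds to uncharged transfer RNA, and the phosphatase subunits PPP1R15A and PPP1R15B, which restore it. Of the 8, 3 rose and 1 fell in knockdown cells, and 1 rose and 4 fell in control cells. EIF2AK2, the kinase activated by double-stranded RNA, rose by 0.99 in knockdown cells and by 1.22 in control cells. PPP1R15A rose by 0.68 and PPP1R15B by 0.37 in knockdown cells, and their control changes of 0.54 and 0.09 were not called. EIF2S1, the alpha subunit of eIF2, fell by 0.69 in knockdown cells and by 0.83 in control cells. EIF2AK4 fell by 0.52 in control cells, and GCN1 by 0.61. Of 24 measured amino acid response genes of 25 listed, 4 rose and 1 fell in knockdown cells (median 0.07), and 4 rose and 5 fell in control cells (median -0.24). Among all genes, 10.1% rose and 14.7% fell in knockdown cells, and 15.2% rose and 20.9% fell in control cells. The control counts were near those shares. SLC7A11, the cystine transporter, rose by 1.52 in knockdown cells, and DDIT3, a stress transcription factor, by 1.03. In control cells SLC7A1, a cationic amino acid transporter, fell by 0.92. ALDH18A1, for proline synthesis, fell by 0.94 in knockdown cells and by 1.14 in control cells.

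Interferon gamma genes were set beside WARS1. Of 8 measured of 10, 5 rose in knockdown cells (median 1.68) and 4 in control cells (median 1.21). The shares of all genes that rose were 10.1% and 15.2%. CXCL10, a chemokine of that response, rose by 4.43 in knockdown cells and by 3.63 in control cells. PSMB9, an immunoproteasome subunit, rose by 1.95 and TAP1, a peptide transporter, by 1.36 in knockdown cells, and by 1.28 and 1.02 in control cells. IRF1, a transcription factor that acts on the response element shown in WARS1, measured 9.58, 9.97 and 9.87 after ATRA in knockdown cells, against 7.87, 8.05 and 7.88 untreated. Its control arrays read 9.99, 9.69 and 9.90 after ATRA, against 7.88, 10.12 and 8.18 untreated, so untreated scrambled replicate 2 was already at the treated level. IRF1 rose by 1.87 in knockdown cells, and its change in control cells was 1.14 (adjusted p = 0.0552). The same untreated array had the highest untreated WARS1 value, 11.62. Among the untreated control arrays it was also the highest for PSMB9 (9.88) and TAP1 (9.39). For CXCL10 it was the lowest, at 6.53 against 9.11 (scrambled replicate 1) and 8.56 (wild type). Any link between these genes and WARS1 was not tested.

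After ATRA, knockdown cells lay above control cells for every synthetase, but by amounts that did not pass the test. The log2 difference, knockdown minus control, was positive for 35 of 35 members, from 0.03 to 0.56 with a median of 0.28, and 0 were called. Over all genes 0.0598% were called (0.0543% higher and 0.00543% lower), 45.3% of differences were positive and the median was -0.03. Of the 3844 genes that fell with ATRA in control cells, 93.1% were positive here, with a median of 0.23. Those genes were picked by low control ATRA values, which favours this direction. Whether the direction was particular to the synthetases was therefore not tested. Unadjusted p-values under 0.05 were found for 14 of 35 members. LARS1 came nearest, with 10.64, 10.59 and 10.75 in knockdown cells against 10.07, 10.18 and 10.05 in control cells (difference 0.56, adjusted p = 0.0506). WARS2 and FARS2 followed, at 0.52 and 0.42 (adjusted p = 0.0539 each), then EPRS1 at 0.55 (adjusted p = 0.063). All 3 knockdown arrays lay above all 3 control arrays in 4 of 19 cytosolic members (EPRS1, FARSB, IARS1 and LARS1) and 9 of 16 mitochondrial members, against 14.3% of all genes. The control ATRA arrays enter both this comparison and the control response to ATRA, so low values on them count in both, and neither is support for the other.

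The positive sign was not kept by every member in every fit. With quantile normalization HARS1 was at -0.02 and PARS2 at -0.03, and without the wild type ATRA array FARSA was at -0.02. Without that array HARS1 was also just below 0. WARS1, at 0.03 with all arrays, was at -0.12 without both arrays of scrambled replicate 2 and at -0.07 without the shRNA2 arrays. Across the alternatives 33 to 35 of 35 members were positive. LARS1 was called with quantile normalization (adjusted p = 0.0448), with array weights (0.0254), without the dimmest genes (0.0478), and without single untreated arrays (scrambled replicate 2, shRNA2). WARS2 was called with quantile normalization (0.0451), and EPRS1, FARS2 and WARS2 with array weights (0.0404, 0.0428 and 0.0404) and without untreated scrambled replicate 2.

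**Figure D5:**
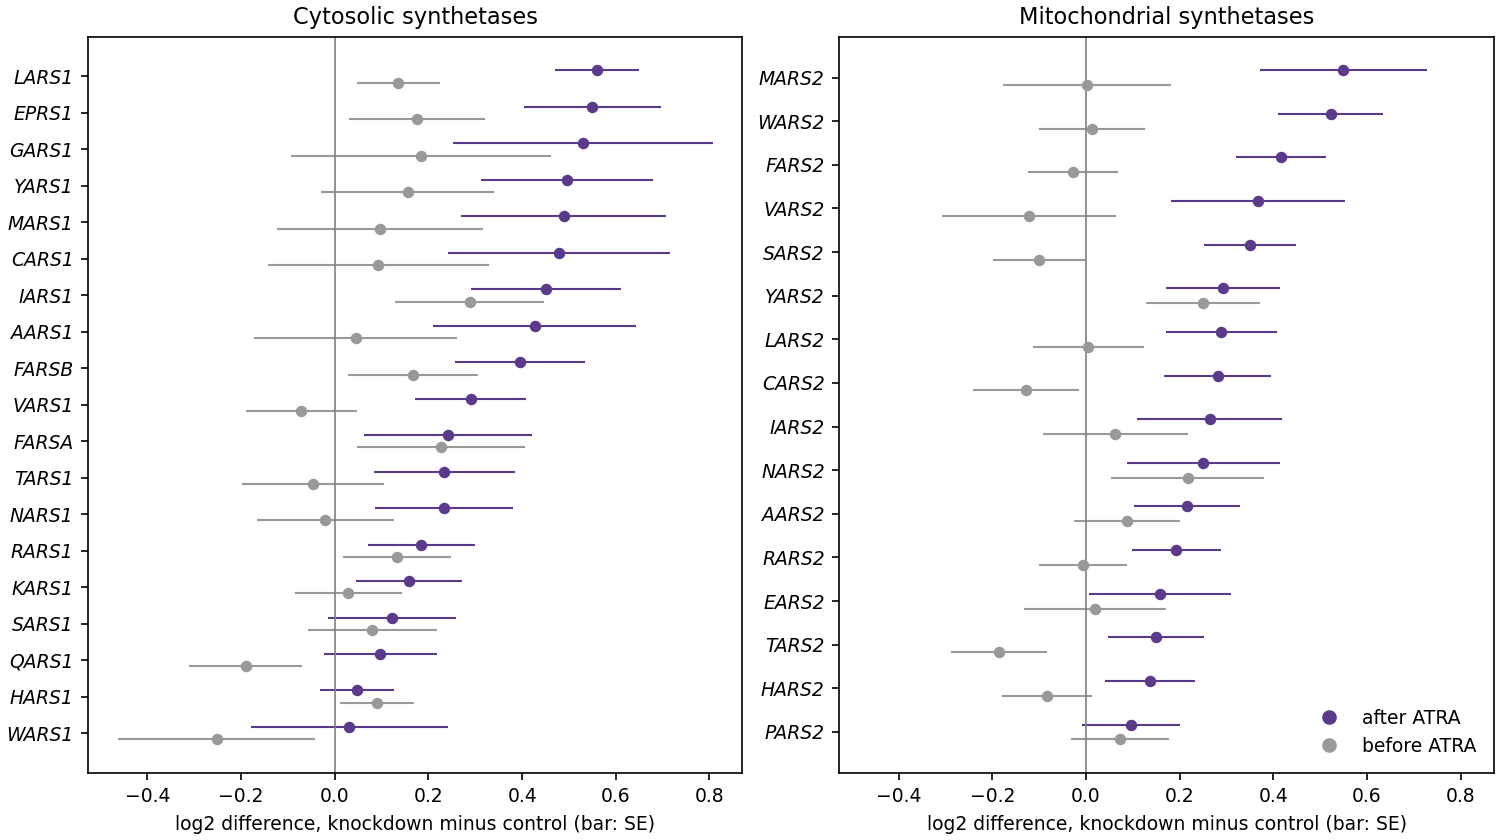
Log2 difference of knockdown minus control cells (x axis) for each member, after ATRA (purple, upper) and before ATRA (grey, lower), with standard errors of the limma fit over 3 arrays an arm. Purple points all lie right of 0, between 0.03 and 0.56, and grey points lie on both sides.

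Before ATRA the direction was less uniform among the members and the median smaller. The difference was positive for 23 of 35 members, with a median of 0.04, against 51.2% of all genes and a median of 0.003. In the limma fit 0 members were called, as were 0% of all genes. The smallest adjusted p was 0.999, unadjusted p-values under 0.05 numbered 0 among members and 727 among all genes, and the arms of 33 members overlapped. Across the alternatives 15 to 25 members were positive, the 15 without both arrays of scrambled replicate 2. YARS2 was higher and CARS2 lower on all 3 knockdown arrays, against 3.75% and 4.04% of all genes.

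The test of the difference between the responses, knockdown minus control, called 0 members and 0% of all genes (smallest adjusted p 0.271). Without adjustment, 6 members and 2815 genes had p under 0.05. The estimate was positive for 34 of 35 members (HARS1 was at -0.04), with a median of 0.28, against 48.7% of all genes and a median of -0.01, and 28 to 34 members were positive across alternatives. Of the 3844 genes that fell in control cells, 86.7% were positive, with a median of 0.19; the control arrays enter both measures. A smaller fall in knockdown cells is therefore a direction shared by the estimates and not a tested difference for any member.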

How the data were processed

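Total RNA of 12 samples was labelled with biotin and hybridised to Affymetrix ST arrays, per the labels' protocols. The authors deposited log2 values, made with RMA per the submitters' processing notes, which also name limma; versions and the genome build are not given in the sources used here. Values ran from 2.67 to 14.63 and were used without further normalization.

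Of 32321 probe sets, 19158 had 1 gene, 1388 several and 11775 none listed, and 0 symbols changed when matched by Entrez identifier (19128 matched). For 637 genes with several probe sets the highest-mean one was kept, giving 18404 genes. No dim gene was removed. All 12 arrays entered one limma fit (limma 3.58.1, R 4.3.3; lmFit and eBayes, 4 arm means, 8 residual degrees of freedom), with two-sided p-values adjusted by Benjamini-Hochberg over all genes of a contrast, threshold 0.05. Differences are untreated subtracted from ATRA and control subtracted from knockdown, and errors are standard errors of that fit. An exact permutation test of 3 against 3 cannot give p below 0.1, so it was not used. The fit was tested on simulated data.

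The members, lists and motifs were chosen with earlier results of these data known. Values per array were named for members called in any contrast, the 4 largest changes per compartment and ATRA contrast, pairs called in opposite directions, and HARS1 with HARS2, and in other lists up to 4 genes by smallest p; AARS1, GARS1, MARS1, ASNS, PHGDH and some genes of the other lists were named after their values were seen. Alternatives were quantile normalization, leaving out the dimmest genes (lowest tercile of mean level), the mean of probe sets, array weights, a trended robust prior, line as a fixed or random block, and leaving out arrays or lines. Untreated and ATRA samples of 1 line were checked for shared deviations (correlations of -0.173 to 0.226), and not every pair exceeded 0.1, so lines were not taken as pairs.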

Additional observations from a re-analysis of the deposited data

How the results depend on the processing

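Of 38 calls of single members with ATRA, 25 kept their call under every alternative run. Over 836 alternative values 772 kept direction and side of the threshold, 64 kept the direction and missed it, and 0 reversed. No alternative moved the median of all genes by more than 0.0848.

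Quantile normalization ended the control calls of IARS1, NARS1, YARS1, HARS2, RARS2 and VARS2 and the knockdown call of FARS2. Cytosolic members called higher with ATRA in knockdown cells numbered 2 with array weights and 2 without the wild type arrays (AARS1 beside WARS1), and 1 to 2 when single arrays were left out. Without the shRNA2 arrays 3 mitochondrial members fell in knockdown cells, against 7 with all, with changes of the lost ones of -0.67 (EARS2), -0.66 (IARS2), -0.57 (MARS2) and -0.24 (FARS2). Without the wild type arrays 0 cytosolic members rose in control cells, and leaving out single arrays gave 7 to 12 cytosolic falls there, the 7 without the untreated wild type array. Knockdown against control after ATRA, with 0 calls in the fit reported, gave 1 cytosolic and 1 mitochondrial member higher with quantile normalization, 1 cytosolic without the dimmest genes, and 2 of each with array weights. Leaving out single arrays gave 0 to 2 of each. Over all genes that contrast gave 138 higher and 142 lower with quantile normalization, and 383 and 313 with array weights, against 10 and 1. With ATRA in control cells, 4450 genes were higher with array weights and 983 without the wild type arrays (1549 and 1783 without the untreated or the ATRA one), against 2800, and 2477 were lower without the wild type arrays, against 3844. In knockdown cells 980 were higher and 1338 lower without the shRNA2 arrays, against 1854 and 2714. The causes were not tested.

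With the line as a fixed replicate block, 6 cytosolic and 6 mitochondrial members fell with ATRA in knockdown cells, 12 and 13 in control cells, and 1 cytosolic member rose in each. The block ended the knockdown call of FARS2 and added IARS1 there and TARS1 in control cells. Of 6 lines, 4 correlated best with their own untreated sample. With line as a random block (correlation 0.035), 8 mitochondrial members fell in knockdown cells. With 3 arrays an arm, small differences were not detectable.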
